A study of Mus musculus with 26 samples.

Results

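Loss of cyclooxygenase-2 (Cox2, the enzyme encoded by Ptgs2) by gene knockout was compared with its inhibition by the drug NS398 in cultured mouse bone marrow macrophages. The members are 8 of the 26 bead arrays of the series, taken by their titles: 4 arrays of Cox2 knockout (KO) cells cultured 3 days with M-CSF and RANKL and no added PGE2, and 4 arrays of wild-type (WT) cells cultured 3 days with M-CSF, RANKL and NS398 at 0.1 µM. The other day 3 groups were WT cells with M-CSF and RANKL alone (4 arrays) and KO cells with M-CSF, RANKL and PGE2 at 1 µM (4 arrays). On day 1, KO and WT cells with M-CSF and RANKL were measured on 3 arrays each in a separate experiment. All mice were male CD1 animals, an outbred stock, 2 months old, and marrow cells were expanded in M-CSF at 100 ng/ml before plating. The doses of M-CSF and RANKL on day 3 are not given in the sources used here. Genotype, drug and the mice that gave the marrow all differ between the KO and NS398 groups and cannot be told apart. The replicates are called biological without a statement that they came from separate mice, so every p-value below reflects the spread among these arrays and no more.

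Cox2 turns arachidonic acid into prostaglandin H2, from which PGE2 is made. PGE2 acts on macrophages and osteoclast precursors through the receptors EP2 and EP4, which raise cAMP. A knockout removes the protein for the life of the animal, before the marrow is taken. NS398 was added only in culture, where it blocks the catalytic site and leaves the protein in place. M-CSF is the survival factor of macrophages, and RANKL drives them to become bone-resorbing osteoclasts. The comparison asks how far the RNA of cells without the Cox2 gene equals that of cells given the drug against Cox2. The arrays do not measure how far the drug blocked Cox2 at this dose.

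Each value below is a normalized bead intensity as deposited, on a linear scale, and each difference is on the log2 scale with KO minus NS398 positive when KO is higher. Within the KO and the NS398 group arrays correlated across probes at 0.978 or more, and none stood apart from its group by this measure. In single genes the NS398 group did divide: arrays 17 and 18 lay apart from 13 and 16r for Ndufa2, Cox8a and Manbal below. The median SD of log2 intensity over 4 arrays was 0.121 in KO and 0.133 with NS398. The number of arrays limits the precision. The targeted gene itself could not serve as a check of the labels, as none of the named probes is that of Ptgs2. The cultures carried RNA of macrophages, the labelled cell type: the macrophage marker Cd68 had 27637 ± 2534 in KO and 26933 ± 1641 with NS398 (SD, n = 4 each). Other macrophage markers were dimmer. Adgre1 had 3463 ± 717 in KO and 2687 ± 789 with NS398 (SD, n = 4 each). Marco had 151 ± 17.9 and 165 ± 15.7 (SD, n = 4 each), with a detection p of 0.0589 in KO in the authors' deposited tables. The cultures also carried osteoclast RNA. The osteoclast protease Ctsk had an intensity of 28662 ± 3318 (SD, n = 4) in KO and 21064 ± 2057 (SD, n = 4) with NS398, and Mmp9 had 34693 ± 3670.3 and 31851 ± 3831 (SD, n = 4 each). In bulk RNA fewer cells of a type and less RNA per cell cannot be told apart.

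Promoters of 4 genes are shown because these genes stand for the patterns below. Csrp1 had the largest rise in KO over NS398, and Vegfa had the largest rise among genes whose WT level lay near KO. Among the 42 called genes whose promoter was searched, Cdc5l is the only one with the complete cAMP response element. Cxcl1 is a PGE2 response gene that differed between KO and NS398. Called genes chosen after their values were seen, such as Tnf and Egr1, were not searched. The sequences are the 250 bases before the annotated start, from RefSeq on GRCm38.p6, 5′ to 3′ on the gene's strand, with matches to the cAMP response element TGACGTCA or its core TGACG on either strand in capitals.
Csrp1, chr1:135728917-135729166, plus strand: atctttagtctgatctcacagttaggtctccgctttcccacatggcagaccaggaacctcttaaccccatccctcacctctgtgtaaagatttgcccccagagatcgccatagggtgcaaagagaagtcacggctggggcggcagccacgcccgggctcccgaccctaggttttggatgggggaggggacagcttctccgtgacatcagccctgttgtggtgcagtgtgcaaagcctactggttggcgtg
Vegfa, chr17:46032378-46032627, minus strand: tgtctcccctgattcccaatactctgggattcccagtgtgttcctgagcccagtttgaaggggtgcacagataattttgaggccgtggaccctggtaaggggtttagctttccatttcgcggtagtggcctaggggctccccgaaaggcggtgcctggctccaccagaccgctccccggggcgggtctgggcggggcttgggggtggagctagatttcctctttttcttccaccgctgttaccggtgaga
Cdc5l, chr17:45433708-45433957, minus strand: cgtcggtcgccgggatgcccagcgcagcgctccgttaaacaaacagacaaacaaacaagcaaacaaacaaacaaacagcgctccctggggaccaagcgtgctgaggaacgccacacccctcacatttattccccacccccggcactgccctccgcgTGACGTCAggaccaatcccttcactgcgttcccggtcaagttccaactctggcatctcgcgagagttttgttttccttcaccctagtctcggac
Cxcl1, chr5:90890995-90891244, plus strand: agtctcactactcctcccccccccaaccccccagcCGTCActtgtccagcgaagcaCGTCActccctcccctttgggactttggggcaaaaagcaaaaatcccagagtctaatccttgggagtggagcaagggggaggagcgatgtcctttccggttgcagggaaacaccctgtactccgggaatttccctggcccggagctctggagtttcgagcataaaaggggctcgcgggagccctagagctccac
The complete element TGACGTCA, which also contains the core, occurred in 1 of 42 promoters found for the 51 called genes searched (2.38%). It occurred in 439 of 27025 promoters of the table (1.62%). The core alone or within it occurred in 7 of these 42 (16.7%) and in 4827 of 27025 (17.9%). Cxcl1 holds the core at 2 places and the promoters of Csrp1 and Vegfa have no match in this window. A match is a description of these letters, and the share among called genes lay near that of all promoters.

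Most probes tested had similar levels in KO and NS398 cells, and a set of genes differed clearly. Of 18961 probes tested, 140 passed the limma test at an adjusted p under 0.05 (0.738%) and 1575 had an unadjusted p under 0.05 (8.31%). Of the 140, there were 70 higher in KO (0.369%) and 70 lower (0.369%). For 18585 probes (98.0%) the 95% interval of the difference lay within 1 log2 unit of 0, and for 15390 (81.2%) within 0.5. Among named probes 62.3% had an interval within 0.5. These shares include probes near background. One such probe was that of Camp, a granulocyte marker, with detection p-values of 0.515 in KO and 0.81 with NS398 in the authors' deposited tables. The median absolute difference over all probes was 0.079. Against the same WT arrays 1208 probes were called for KO (6.37%) and 1126 for NS398 (5.94%). At an absolute difference of at least 1, 28 probes were called (0.148%), 10 higher and 18 lower in KO. Gene names, which exist only for probes that the authors listed in a comparison, were available for 136 of the 140, or 1.91% of the named probes tested. They stand for 123 genes, 65 with a higher and 59 with a lower probe, Rgs1 being in both counts. Counting 1 probe per gene, the brightest, 111 of 5704 named genes were called (1.95%), 57 higher (0.999%) and 54 lower (0.947%). The number called depended on single arrays: without NS398 array 18 it was 36 higher and 52 lower, without NS398 array 17 it was 37 and 59, and without KO array 8 it was 44 and 61.

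**Figure D1:**
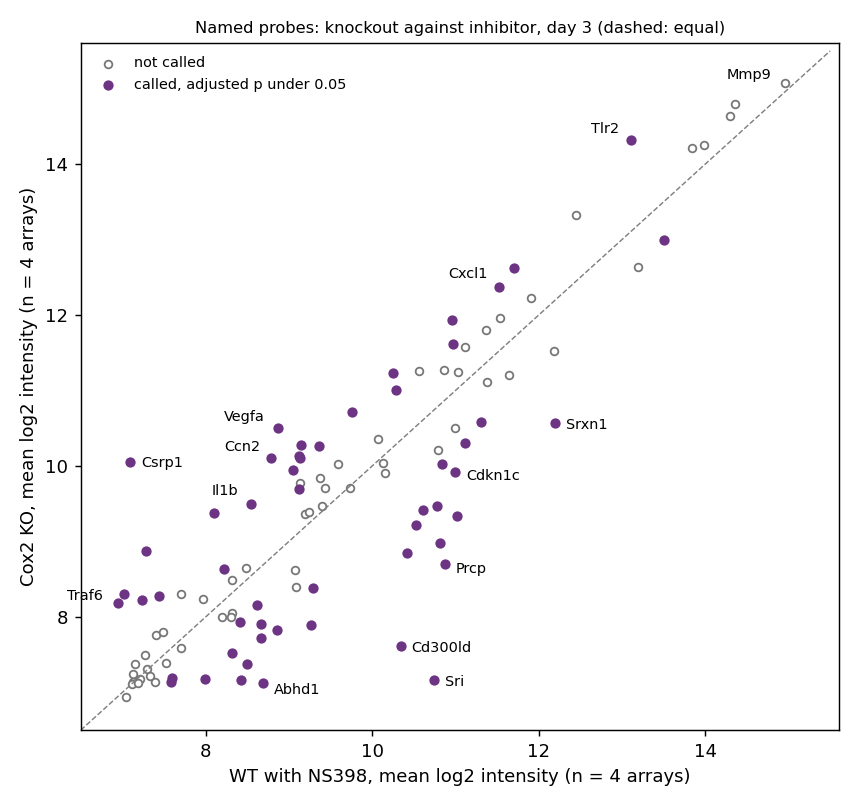
Mean log2 intensity of each named probe in KO cells (vertical axis, n = 4 arrays) against WT cells with NS398 (horizontal axis, n = 4 arrays). Filled points are the 54 probes called and open points the 54 not called; Csrp1 lies farthest above and Sri farthest below the dashed line of equal levels.

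Genes that were low in both KO and NS398 cells were examined first. Il1b, the inflammatory cytokine interleukin-1 beta, had intensities of 721, 799.7, 748 and 629.5 in the 4 KO arrays and 392, 396, 345 and 365 in the 4 NS398 arrays. The WT arrays without drug read 15108, 21393, 15585 and 22412, and KO cells with PGE2 20816, 27363, 23167 and 20963. KO and NS398 cells were thus both far below WT, by a log2 difference of -4.67 (adjusted p = 3.4e-12) and -5.62 (adjusted p = 1.9e-13). The KO arrays all lay above the NS398 arrays, a difference of 0.95 ± 0.13 (SE; limma adjusted p = 0.00092).

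Cxcl1, a chemokine that draws neutrophils, read 5510.0, 4905, 5366 and 5358 in KO and 2466, 2327, 3285 and 3951 with NS398, against 27363, 24509, 22991 and 29073 in WT. Again no arrays of KO and NS398 overlapped, as was the case for 919 of all probes tested (4.85%), and KO was higher by 0.85 ± 0.15 (SE; limma adjusted p = 0.012). That call was lost when the fit held only the KO and NS398 arrays or when arrays with the suffix r were left out (largest adjusted p = 0.091). Tnf, the inflammatory cytokine tumour necrosis factor, had 1239.5 ± 161 in KO, 767 ± 117 with NS398 and 4478 ± 144 in WT (SD, n = 4 each), a KO minus NS398 difference of 0.70 ± 0.13 (SE; limma adjusted p = 0.017). Of 29 cytokine and chemokine genes tested, these 3 were higher in KO and 1 was lower (13.8%, beside 1.95% of all named genes); the median difference was -0.01, beside a median of 0.0042 over all probes. The lower gene was Cxcl9, an interferon-induced chemokine, with 140.4, 152, 134 and 136 in KO and 192, 190.4, 187 and 197 with NS398 (-0.45 ± 0.07, SE; limma adjusted p = 0.0043). Its WT arrays, at 144 to 177, lay near those of KO. The Cxcl9 call was lost without the arrays with suffix r (adjusted p = 0.091), and no group detection p was at hand for this dim probe.

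Fpr2, a receptor for formyl peptides and serum amyloid A, moved the other way. It read 1409, 1384, 1153 and 1139.9 in KO, 1977, 1963, 2168 and 2911 with NS398 and 8616, 10926, 8719 and 11647 in WT. The KO arrays were all below the NS398 arrays, by a difference of -0.81 ± 0.14 (SE; limma adjusted p = 0.0087, lost without the arrays with suffix r, where it was 0.072). Of 24 acute-phase and secreted defence genes, 0 were higher and 2 were lower in KO (8.33% called, beside 1.95% of all named genes). Of these 2, 1 was Fpr2 and the other Serpina3g, a serine protease inhibitor. Serpina3g read 157, 142, 131 and 149 in KO and 331, 247, 211 and 245 with NS398, at least 1.74-fold lower in KO (limma adjusted p = 0.0012), since the detection p of KO in the authors' deposited table was 0.14. Such a bound sets the bright group against the lowest signal detected in the dim group, or the probe's own signal where higher, and is used wherever the group detection p is 0.05 or more.

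The other response genes named had no difference that passed. Saa3, a serum amyloid of the acute phase, read 209, 156, 235 and 177 in KO and 178, 176, 266 and 232 with NS398, while WT lay at 3336 to 8320.2. The groups overlapped and the 95% interval of the difference was -0.64 to 0.39 (adjusted p = 0.94). Socs3, an inhibitor of cytokine signalling, read 727, 709.9, 617 and 584 and 523, 563, 541 and 727, against 7288 to 10780.0 in WT, with an interval of -0.12 to 0.46 (adjusted p = 0.83). Ptges, the enzyme that makes PGE2 from prostaglandin H2, had an interval of -0.65 to 0.36, with 169.6, 165, 169.9 and 166 in KO and 139.6, 184, 217 and 209 with NS398. Il10, an anti-inflammatory cytokine, had an interval of -0.13 to 0.57, and Arg1, which breaks down arginine, one of -0.04 to 0.49; the detection p of Arg1 with NS398 was 0.201 in the authors' deposited table. For Hbegf, an epidermal growth factor receptor ligand, it was 0.03 to 0.54.

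Cnr2, the cannabinoid receptor of immune cells, was higher in both KO and NS398 cells than in WT. It read 812, 774, 749.9 and 546 in KO and 854, 583, 722 and 575 with NS398, with 163 to 212 in WT and an interval of -0.22 to 0.38. Lpar6, a lysophosphatidic acid receptor, had 3061 ± 250.5 in KO and 2242 ± 418 with NS398 (SD, n = 4 each), a difference of 0.46 ± 0.12 (SE) that did not pass (limma adjusted p = 0.1). Ccnd1, the G1 cyclin D1, read 1488, 1319, 1656 and 1374 in KO and 1519.5, 1653, 2698 and 2598 with NS398, with NS398 arrays 17 and 18 the highest (-0.49 ± 0.19, SE; limma adjusted p = 0.44). Slco2b1, an organic anion transporter of macrophages, did pass: 1057, 1061, 1057 and 810.2 in KO, 415, 559.8, 599 and 575 with NS398 and 330.0, 323, 301 and 257 in WT, a difference of 0.90 ± 0.15 (SE; limma adjusted p = 0.0052). Egr2, a transcription factor of alternatively activated macrophages, was lower in KO (1553 ± 256) than with NS398 (2542 ± 214) (SD, n = 4 each), a difference of -0.72 ± 0.12 (SE; limma adjusted p = 0.0043), while both lay above WT at 680.2 ± 82.5.

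**Figure D2:**
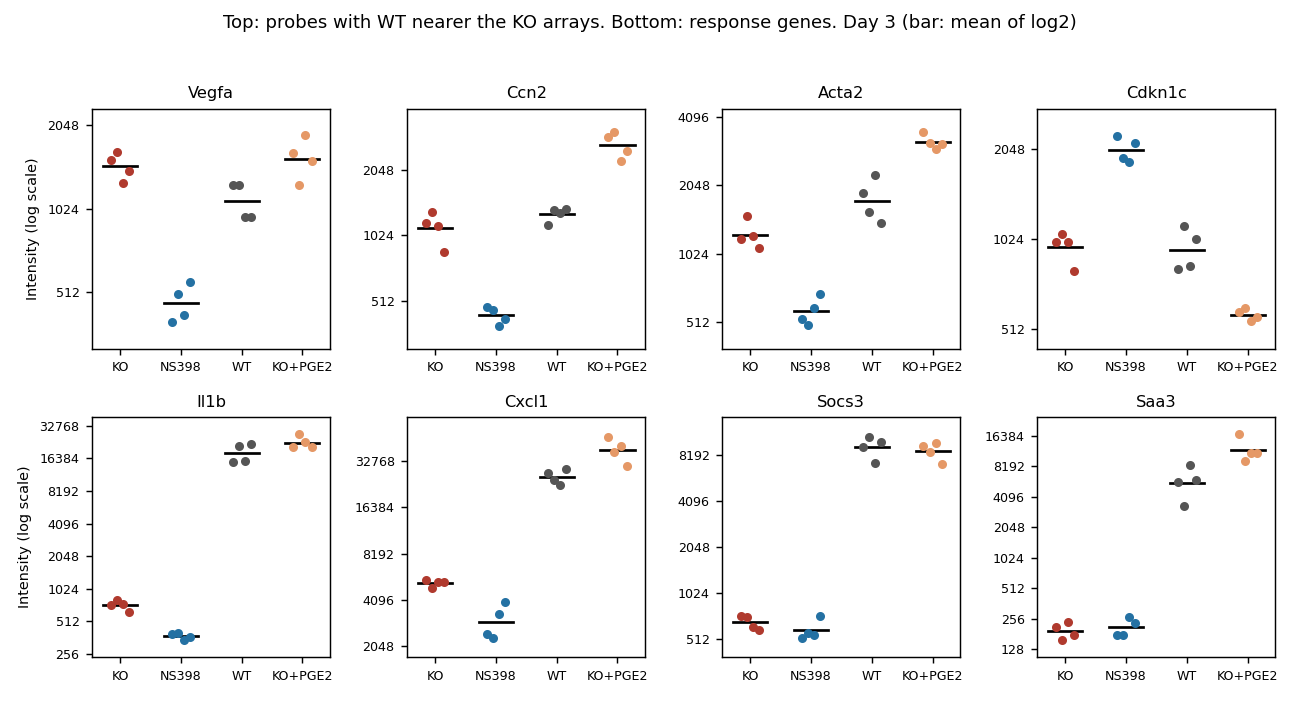
Bead intensity (log axis) of 8 genes in each array of the 4 day 3 groups, with the mean of log2 values as a bar. In the top row the NS398 arrays stand apart from KO and WT, and in the bottom row KO and NS398 both lie far below WT and KO with PGE2.

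The 3 largest differences, of Sri, Csrp1 and Cd300ld, were in genes for which NS398 cells lay near untreated WT cells. Csrp1, a LIM-domain protein of the actin cytoskeleton, read 951, 1157, 1029 and 1134 in the KO arrays and 132, 137, 146 and 134 in the NS398 arrays. WT arrays read 136, 146, 136 and 146, and KO arrays with PGE2 1226, 1242, 1344 and 1592. Every array of both KO groups was far above every WT array, treated or not; the detection p with NS398 was 0.376 in the authors' deposited table. Csrp1 was thus at least 7.63-fold higher in KO than with NS398 (limma adjusted p = 7.1e-12).

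Uap1, which makes the sugar donor UDP-N-acetylglucosamine, read 480.3, 325, 503 and 607 in KO and 128, 161, 144 and 201 with NS398 (1.58 ± 0.18, SE; limma adjusted p = 0.00016). Traf6, the adaptor that carries the signal of RANK, the receptor of RANKL, read 297, 317, 260.5 and 291 and 119.6, 118, 132 and 124, at least 2.13-fold higher in KO (limma adjusted p = 7.6e-08). The Traf6 probe was at 119 to 140.3 in WT and at 246 to 278 in KO with PGE2, so it followed the genotype in all 4 groups. Cdc5l, a splicing factor, read 1583, 1749, 1551 and 1835 and 878, 909, 822 and 854 (0.95 ± 0.08, SE; limma adjusted p = 5.9e-06), with WT at 803 to 959 and KO with PGE2 at 1435 to 1744. Only 1 of the 2 Cdc5l probes was called, and the other had a difference of -0.02.

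Cyp4f18, a cytochrome P450 that in the mouse hydroxylates leukotriene B4, read 325, 282, 357 and 244 in KO and 150.0, 142, 149 and 163 with NS398 (at least 1.98-fold higher in KO; limma adjusted p = 5.6e-05). Here KO with PGE2 was at 147 to 185, near WT. Its other probe was not called and had a difference of 0.16. Msmo1, a methylsterol oxidase of cholesterol synthesis, read 2223, 1815, 2342 and 3604 in KO, 1281, 1466, 1112 and 1055 with NS398 and 922, 723, 1079 and 991 in WT (0.99 ± 0.18, SE; limma adjusted p = 0.015). The Msmo1 call was lost without NS398 array 17 or 18 and when only the KO and NS398 arrays were fitted (largest adjusted p = 0.069). It was the only one of 14 cholesterol genes called (7.14%, beside 1.95% of all named genes), and their median difference was 0.01.

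Several genes of this kind were lower in KO. Sri, the calcium-binding protein sorcin, read 158, 145, 126 and 146 in KO and 1399, 1452, 2022 and 2086 with NS398, and 2367, 1707, 2963 and 1432 in WT. KO cells with PGE2 stayed low, at 169.7, 184, 214 and 188. With a KO detection p of 0.163 in the authors' deposited table, this probe was at least 11.7-fold lower in KO (limma adjusted p = 2.2e-08). The difference rests on 1 of 3 Sri probes; the others were not called, and the highest of the 3 differences was -0.04.

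Cd300ld, an activating receptor of the CD300 family on myeloid cells, read 197, 192, 195 and 199 in KO and 1392, 1569.5, 1109.9 and 1181 with NS398, a difference of -2.73 ± 0.11 (SE; limma adjusted p = 8.6e-10). WT was at 979 to 1345 and KO with PGE2 at 147 to 186. Abhd1, an alpha/beta hydrolase, read 129, 137, 153 and 141 and 434, 404, 409.7 and 409, at least 2.91-fold lower in KO (limma adjusted p = 6.4e-08), and all 3 of its probes were called lower. Manbal, a small membrane protein, read 522, 455, 520.4 and 529 in KO and 1255, 1289.8, 2429.9 and 2637 with NS398 (-1.83 ± 0.25, SE; limma adjusted p = 0.0011). Its NS398 arrays fell in pairs, 17 and 18 above 13 and 16r, and all were above KO.

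Srxn1, which repairs oxidized peroxiredoxins and is a target of the stress factor Nrf2, read 1729.9, 1375, 1705 and 1298 in KO, 5539, 4719.8, 5064 and 3682 with NS398 and 2992, 3560.0, 3299 and 4131 in WT (-1.63 ± 0.14, SE; limma adjusted p = 6.2e-06). It was called with 1 of 3 probes, and the smallest of the 3 differences was -0.24. Of 17 Nrf2 and xenobiotic genes, Srxn1 was the lower one called and Cyp4f18 the higher one (11.8%, beside 1.95% of all named genes). An unadjusted p under 0.05 was found for 8 of the 17 (47.1%, beside 15%), and the median difference of the list was -0.04. Nqo1, a classical Nrf2 target, had a difference of -0.27 ± 0.09 (SE; limma adjusted p = 0.37).

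**Figure D3:**
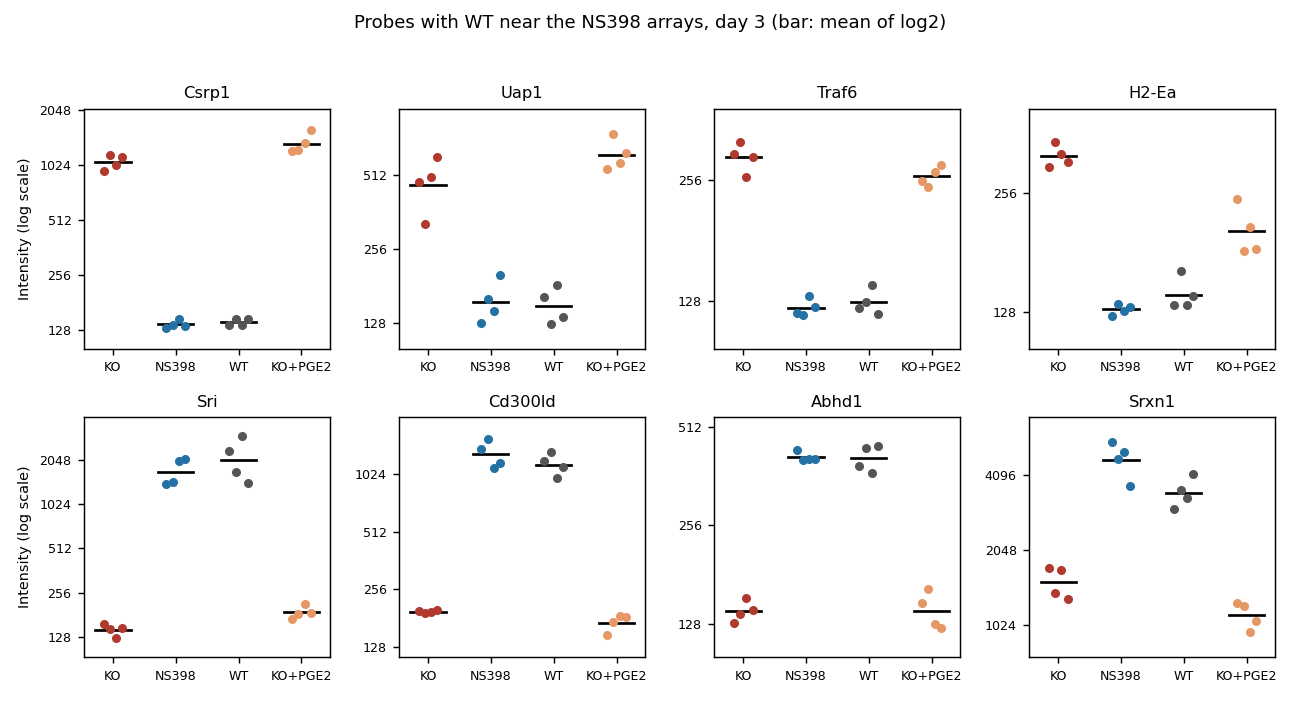
Bead intensity (log axis) of 8 genes in each array of the 4 day 3 groups, with the mean of log2 values as a bar. In these genes WT and NS398 arrays lie together and away from both KO groups, above or below them, with H2-Ea in KO with PGE2 between.

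In another set NS398 cells stood apart from both WT and KO. Vegfa, the growth factor of blood vessels, read 1532, 1641, 1268 and 1401 in KO, 399.8, 506, 425 and 559.8 with NS398, 1247, 1245, 958 and 955 in WT and 1617, 1247, 1876 and 1518 in KO with PGE2. The NS398 arrays were below every other array, and KO exceeded NS398 by 1.63 ± 0.14 (SE; limma adjusted p = 6.3e-06). Both Vegfa probes were called, the other with a difference of 0.88. Ccn2, a matricellular growth factor, read 1163, 1304, 1132 and 861 in KO and 485, 466, 398 and 427 with NS398 (1.32 ± 0.12, SE; limma adjusted p = 1.5e-05). WT was at 1142 to 1349 and KO with PGE2 at 2245 to 3034.

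Acta2, smooth muscle actin, read 1187, 1497, 1219.7 and 1088 in KO, 525, 493, 589.9 and 681 with NS398 and 1907, 1561, 2279 and 1401 in WT (1.13 ± 0.14, SE; limma adjusted p = 0.00043). This was 1 of 4 Acta2 probes and the only one called, and the smallest of the 4 differences was 0.23. With this probe KO was also below WT, by -0.50 (limma adjusted p = 0.045), and KO with PGE2 was at 2976 to 3516. Acta2 is also a marker of stromal cells, and of 11 stromal markers tested it was the only one called (9.09%, beside 1.95% of all named genes). Of the 11 differences 10 were above 0 (90.9%, beside 54.7%), with a median of 0.09. The summed intensity of the 11 was 2833 to 3237 over the KO arrays and 2029 to 2255 with NS398, without overlap, and Acta2 alone gave means of 1248 and 572. Of the 7 with a group detection p in the authors' deposited tables, 6 were detected (p under 0.05) in KO and 3 with NS398. The fibroblast collagen Col1a1 had detection p-values of 0.0401 in KO and 0.118 with NS398 there, and Dcn 0.0576 and 0.0727. The part of stromal cells in the Acta2 difference was not tested. Bgn, a matrix proteoglycan, and Col5a1 had differences of 0.59 ± 0.16 and 0.35 ± 0.08 (SE; limma adjusted p = 0.15 and 0.08).

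Tlr2, the receptor for bacterial lipoproteins, read 19620.0, 21727, 18469 and 21946 in KO and 10849, 13472, 6151 and 6815 with NS398, with arrays 17 and 18 lowest (1.20 ± 0.23, SE; limma adjusted p = 0.015). WT was at 23395 to 30159.7. The call was lost without KO array 8 or NS398 array 17 or 18 (largest adjusted p over the alternatives = 0.071). Gpr84, a receptor for medium-chain fatty acids, read 1142, 1279, 1112 and 966 in KO and 498, 548, 539 and 657 with NS398 (1.00 ± 0.11, SE; limma adjusted p = 8.9e-05). WT was at 1403 to 1652 and KO with PGE2 at 6442 to 8881. KO was thus also below WT, by -0.48 (limma adjusted p = 0.013). The other Gpr84 probe, at 0.76, was not called, and its KO minus WT difference of -0.60 did not pass (limma adjusted p = 0.13). Cdkn1c, the cell cycle inhibitor p57, went up with the drug: 1006, 1069.5, 1005 and 803 in KO, 2264, 1923, 1865 and 2154 with NS398 and 817, 1140.3, 832 and 1032 in WT (-1.08 ± 0.11, SE; limma adjusted p = 5.3e-05). It was the only one of 28 cell cycle genes called (3.57%, beside 1.95% of all named genes).

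In a further set KO and NS398 lay on opposite sides of WT. Prcp, a lysosomal carboxypeptidase, read 421, 439.6, 388 and 423 in KO, 984, 1115, 1017 and 1224 in WT and 2304, 1437, 1859 and 2039 with NS398. No array overlapped between the 3 groups, and KO was below NS398 by -2.17 ± 0.12 (SE; limma adjusted p = 2.7e-08). Both steps passed on their own, at -1.37 for KO minus WT and 0.80 for NS398 minus WT (limma adjusted p = 1.6e-06 and 0.00043). Atg9b, a membrane protein of autophagy, read 533, 498, 449 and 383 in KO, 745, 1010.0, 727 and 1029 in WT and 1365, 1343, 1310.2 and 1466 with NS398 (-1.57 ± 0.13, SE; limma adjusted p = 4.4e-06). Slamf7, a SLAM family receptor of leukocytes, read 164, 168, 170.0 and 161, 272, 295, 251 and 265 and 414, 431, 313 and 306 in the same order (-1.13 ± 0.11, SE; limma adjusted p = 1.7e-05). Fam126a, a part of a phosphatidylinositol 4-kinase complex, read 777, 771, 733 and 399 in KO and 2992, 2004, 1685 and 1832 with NS398 (-1.68 ± 0.31, SE; limma adjusted p = 0.014). Its WT arrays spread from 855 to 2314, and the call was lost without the arrays with suffix r (adjusted p = 0.19).

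Over all 140 called probes, the WT mean lay nearer to NS398 in 85 and nearer to KO in 55. It was beyond NS398 in 36, between and nearer NS398 in 49, between and nearer KO in 22, and beyond KO in 33. The mean of KO with PGE2 lay nearer to KO in 107 and nearer to NS398 in 33. These counts describe where the other groups sat and carry no test.

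Genes of antigen presentation held differences in both directions. H2-Ea and H2-Eb1, the chains of the class II molecule I-E, were higher in KO. H2-Ea read 298, 345, 322 and 306 in KO and 125, 134, 129 and 132 with NS398, with WT at 133 to 162, at least 2.33-fold higher (limma adjusted p = 9.1e-07; the detection p with NS398 in the authors' deposited table was 0.717). H2-Eb1 read 307, 328, 302 and 300.3 and 169, 199.7, 158 and 174 (0.83 ± 0.07, SE; limma adjusted p = 7.5e-06).

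H2-Ab1, a chain of the class II molecule I-A, was lower in KO, with 233, 234, 239 and 245 against 525, 629, 566 and 757 with NS398 and 199 to 312 in WT (-1.37 ± 0.15, SE; limma adjusted p = 8.4e-05). Of its 4 probes 3 were called lower and the differences ran from -1.37 to -0.52. Cd74, the invariant chain that guides class II molecules, read 950.4, 1023, 1095 and 1118 in KO, 2101, 1726, 1808 and 1709 with NS398 and 748, 569.9, 759 and 609.9 in WT (-0.81 ± 0.11, SE; limma adjusted p = 0.00092). H2-DMb1, which helps load peptides, was also lower, at -0.66 (limma adjusted p = 0.0031). In all 2 of 7 class II genes were higher and 3 lower in KO (71.4%, beside 1.95% of all named genes).

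H2-K2, a class I gene of the same cluster, read 754, 620.1, 758 and 561 in KO and 260.3, 237, 307 and 303 with NS398 (1.28 ± 0.13, SE; limma adjusted p = 3.8e-05). Over all genes whose symbol begins with H2-, a grouping made after values were seen, 7 of 18 were called (38.9%), 5 higher and 2 lower, beside 1.95% of all named genes. H2-Q7 and H2-D4 were the further ones. H2-Q7 differed by 0.70 (limma adjusted p = 0.0024), and H2-D4, with a detection p of 0.878 with NS398 in the authors' deposited table, was at least 1.3-fold higher in KO (limma adjusted p = 0.0094). H2 genes are among the most variable between mice, and the part of sequence differences under the probes was not tested.

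Position on chromosome 1, where Ptgs2 lies, went along with the share of genes called in KO against NS398. Of 48 genes tested among the 100 on either side of Ptgs2, 9 were called (18.8%), 4 higher and 5 lower in KO. Rgs1 is counted among the lower ones by its brightest probe, although its probes were called in opposite directions. Farther out, 10 of 101 genes lying over 100 and up to 300 genes from Ptgs2 were called (9.9%) and 4 of 158 beyond 300 (2.53%). All other chromosomes together had 88 of 5394 (1.63%). For KO minus WT 12 of the 48 nearest genes were called (25%), 27 of the 101 farther out (26.7%) and 30 of the 158 beyond 300 (19%). On the other chromosomes it was 858 of 5394 (15.9%). For NS398 minus WT the counts in the same order were 8 (16.7%), 25 (24.8%), 22 (13.9%) and 790 (14.6%). In both comparisons with WT the share was thus highest in the middle range and not next to Ptgs2. No test was made of these shares, and the part of linkage to Ptgs2 in them was not tested.

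**Figure D4:**
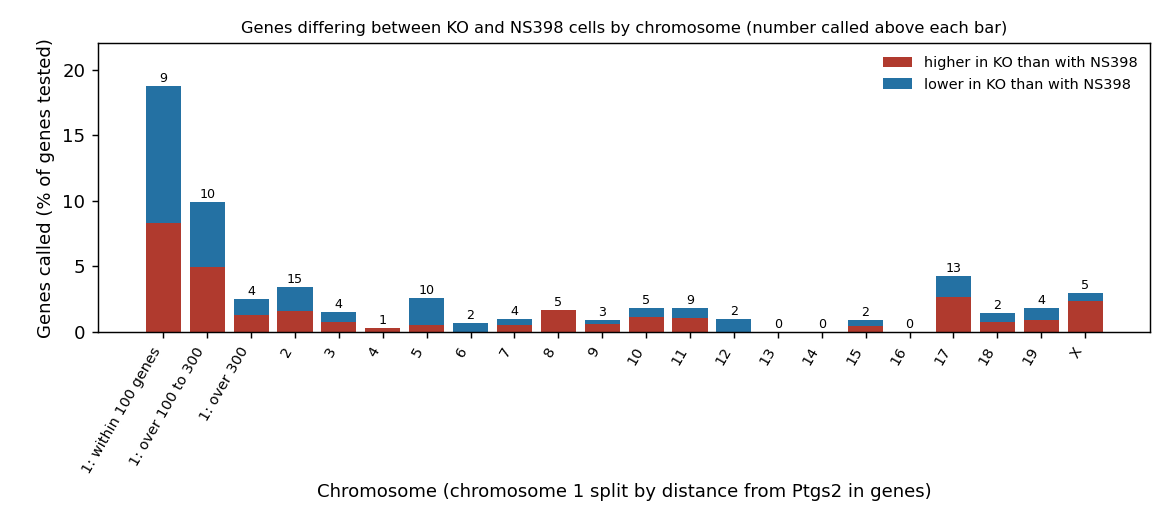
Share of genes called in KO against NS398 (vertical axis, percent of genes tested) for each chromosome, with chromosome 1 split by the distance from Ptgs2 counted in genes, and higher and lower calls stacked. The bar for the 48 genes nearest Ptgs2 reaches 18.8%, and that of chromosome 17, which holds the H2 genes, 4.29%.

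The 9 called genes were Csrp1, described above, and Lad1, Rgs1, Rgl1, Trmt1l, Tpr, Phlda3, Rnpep and 1700025G04Rik. Lad1, an anchoring filament protein, read 159.8, 127, 149.6 and 142 in KO, 323, 374, 334 and 343 with NS398 and 1197, 775, 991 and 720.4 in WT. It was at least 2.37-fold lower in KO than with NS398 (limma adjusted p = 3.8e-05), with both below WT. Rgl1, an exchange factor for Ral, read 193, 213, 218 and 220.3 and 366, 493, 384 and 395, with WT at 474 to 729 (-0.95 ± 0.13, SE; limma adjusted p = 0.00092). Trmt1l, a tRNA methyltransferase homologue, was higher in KO, with 1275, 1183, 1065 and 929.6 against 587, 555, 553 and 549 (0.98 ± 0.16, SE; limma adjusted p = 0.0043). Tpr, a nuclear pore protein, and Rnpep, an aminopeptidase, were also higher, by 0.72 and 0.91 (limma adjusted p = 0.011 and 0.041). Phlda3, an inhibitor of Akt signalling, and 1700025G04Rik were lower, by -0.76 and -0.90 (limma adjusted p = 0.012 and 0.0024). The calls of Rnpep, Tpr and this Phlda3 probe were lost without NS398 array 17, and in all in 9, 3 and 2 alternatives (largest adjusted p = 0.18).

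Rgs1, which shortens the signal of G protein coupled receptors and lies 5 genes from Ptgs2, gave opposite calls by probe. Of its 3 probes, the one with the largest difference read 652, 848, 588 and 774 in KO and 1802, 1887, 1653 and 1718 with NS398 (-1.32 ± 0.15, SE; limma adjusted p = 0.00011). The next one also fell, by -1.20 (limma adjusted p = 0.00046). The last one rose by 0.90 (limma adjusted p = 0.043), with 1081, 1141, 997 and 1874 in KO and 478, 828, 615 and 782 with NS398, a call that was lost in 10 of the alternatives (largest adjusted p = 0.19). No single direction for Rgs1 follows from these probes. Of 34 called genes with more than 1 probe, all probes were called the same way in 5, some were in 28 and opposite calls were made in 1. Rgs2, which neighbours Rgs1, read 147, 138, 139.5 and 138 and 179.8, 173, 173 and 147 and did not pass (adjusted p = 0.18). Sft2d2 and Uap1, at 120 and 155 genes from Ptgs2, and Slamf7, at 199, belong to the wider region, where Sft2d2, a protein of vesicle traffic, differed by 0.98 ± 0.15 (SE; limma adjusted p = 0.0028) with 1 of 2 probes, the other being at 0.60 and not called.

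Of 23 interferon genes 0 were higher in KO and 4 were lower (17.4%), beside 0.947% of all named genes lower. The median difference was -0.11, and 6 of 23 differences were above 0 (26.1%, beside 54.7%). Gbp2, an interferon-induced GTPase, read 569, 685, 466 and 698 in KO, 2325, 1589, 801 and 1609 with NS398 and 3359, 3702, 2656 and 3800.4 in WT (-1.31 ± 0.25, SE; limma adjusted p = 0.018). That call was lost without KO array 7 or 11 or NS398 array 18, and under 2 further alternatives (largest adjusted p = 0.13). Ifi35 read 181, 178, 184 and 194 in KO and 326, 275, 363 and 322 with NS398 (-0.80 ± 0.08, SE; limma adjusted p = 5.3e-05), with WT near NS398 at 286 to 311. Ifit3, an antiviral effector, and Rsad2, the antiviral enzyme viperin, fell by -0.46 and -0.51 (limma adjusted p = 0.0062 and 0.047), and the Ifit3 call was lost without the arrays with suffix r (adjusted p = 0.12). Outside the list, interferon-induced genes were called in both directions. Ifi47, an interferon-induced GTPase, read 185, 194, 194 and 198 in KO and 126, 149, 116 and 146 with NS398, at least 1.38-fold higher in KO (limma adjusted p = 0.0058; its detection p with NS398 was 0.501 in the authors' deposited table). Ly6e, an interferon-induced surface protein, read 216, 224, 211 and 263 and 391, 481, 451 and 542 and was lower in KO (-1.02 ± 0.15, SE; limma adjusted p = 0.0022).

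**Figure D5:**
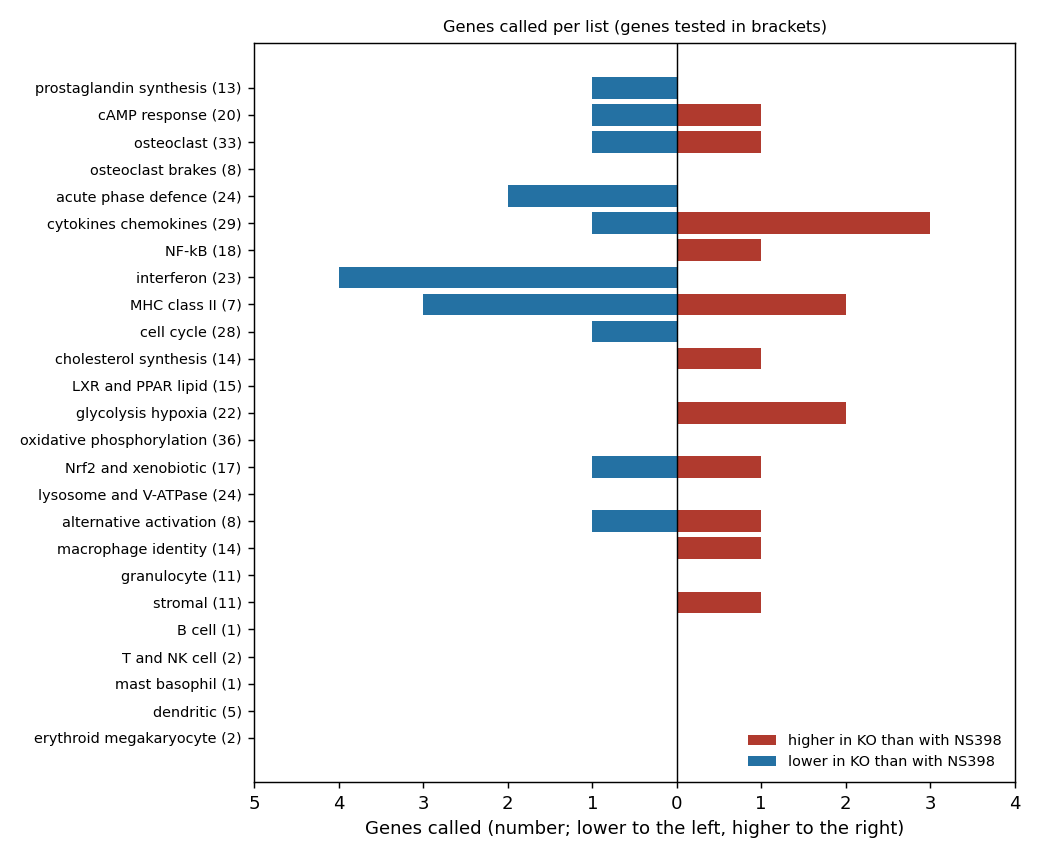
Number of genes called higher (right) and lower (left) in KO than with NS398 in each gene list, with the number of genes tested in brackets. The interferon list has 4 lower, MHC class II has 3 lower and 2 higher, and cytokines and chemokines have 3 higher and 1 lower.

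Of 33 osteoclast genes 1 was higher in KO (Traf6, above) and 1 lower, or 6.06% beside 1.95% of all named genes. An unadjusted p under 0.05 was found for 8 of the 33 (24.2%), beside 15% of all named genes. The median difference was 0.12, and 23 of 33 differences were above 0 (69.7%, beside 54.7%). The lower gene was Slc4a2, the bicarbonate exchanger of resorbing osteoclasts, with 7630.5, 7966, 7813 and 9285 in KO and 12301, 13569.5, 10505 and 10294 with NS398 (-0.51 ± 0.11, SE; limma adjusted p = 0.035), a call lost in 8 alternatives (largest adjusted p = 0.23). Ctsk read 30159.7, 26419, 32605 and 25466 in KO and 23903, 21229, 19786 and 19338 with NS398, without overlap but not past the test (interval 0.19 to 0.70, adjusted p = 0.15). The 95% intervals were -0.18 to 0.60 for Nfatc1, the master transcription factor, -0.14 to 0.39 for Mmp9, -0.09 to 0.92 for the fusion gene Dcstamp and -0.64 to 0.47 for Acp5, the tartrate-resistant phosphatase. For 30 of the 33 genes the interval lay within 1 log2 unit of 0. None of 8 genes that restrain osteoclast formation was called by limma or had an unadjusted p under 0.05; among them Cd200, Id1 and Id2 had intervals of -0.67 to 0.05, -0.17 to 0.53 and -0.15 to 0.47.

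Genes of prostaglandins and of the cAMP response belong to the pathway that both interventions target. Of 13 prostaglandin genes 0 were higher and 1 was lower (7.69% called, beside 1.95% of all named genes), and 3 had an unadjusted p under 0.05 (23.1%, beside 15%). The lower one was Mgll, the lipase that releases arachidonic acid from an endocannabinoid, with 221, 231, 265 and 261 in KO and 361, 369, 318 and 323 with NS398 (-0.49 ± 0.10, SE; limma adjusted p = 0.035). Its other called probe had a difference of -0.50, while the call of the first was lost in 10 alternatives (largest adjusted p = 0.15). Ptger2, the PGE2 receptor EP2, read 313, 272, 311 and 310.1 and 251, 257, 229 and 266 (0.27 ± 0.10, SE; limma adjusted p = 0.42), and Tbxas1, which makes thromboxane, differed by -0.24 ± 0.07 (SE; limma adjusted p = 0.23). Of 20 cAMP response genes 1 was higher (Vegfa) and 1 lower (Rgs1), or 10% beside 1.95% of all named genes, and 7 had an unadjusted p under 0.05 (35%, beside 15%). Their median was 0.11 and 16 of 20 differences were above 0 (80%), beside 54.7% of all named genes. Rgs1 is counted as lower here by its brightest probe, although its probes were called in opposite directions.

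Of 18 NF-kB genes 1 was higher in KO and 0 were lower (5.56% called, beside 1.95% of all named genes), and 6 had an unadjusted p under 0.05 (33.3%, beside 15%). Their median difference was 0.27, beside 0.02 over all named genes, and 16 of 18 were above 0 (88.9%, beside 54.7%). Nfkb2, a subunit of the alternative NF-kB pathway, read 348, 415, 424 and 412 in KO, 272, 339, 298 and 291 with NS398 and 566, 649.8, 564 and 569 in WT (0.42 ± 0.09, SE; limma adjusted p = 0.03), a call lost in 9 alternatives (largest adjusted p = 0.17). Nfkbiz and Nfkb1 differed by 0.46 ± 0.14 and 0.44 ± 0.14 (SE; limma adjusted p = 0.24 and 0.28). Against WT, 15 of the 18 were lower in KO, where 7.52% of all named genes were, and 17 with NS398, where 7.43% were; these comparisons share the WT arrays.

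Among metabolic genes, Pdk1, which closes the entry of pyruvate into mitochondria, read 874, 760.2, 899 and 787 in KO and 647, 569, 562 and 465 with NS398 (0.57 ± 0.12, SE; limma adjusted p = 0.029, lost in 9 alternatives, at most 0.12), and with Vegfa made 2 higher and 0 lower of 22 glycolysis and hypoxia genes (9.09%, beside 1.95% of all named genes). None of 36 oxidative phosphorylation genes was called by limma, and 0 had an unadjusted p under 0.05. Their median difference was -0.18, and 9 of the 36 differences were above 0 (25%, beside 54.7% of all named genes). For 29 of the 36 the interval lay within 1 log2 unit of 0. For Ndufa2, a subunit of complex I, the arrays read 4035, 2648, 3323 and 2133 in KO and 2985, 2774, 7648 and 7288 with NS398, so that NS398 arrays 17 and 18 exceeded the other 6. Cox8a, a subunit of complex IV, had the same pattern, with 7966, 5722, 7378 and 4808 and 6099, 6060.1, 14342 and 14698. None of 24 lysosome and V-ATPase genes and none of 15 LXR and PPAR lipid genes was called by limma, with 0 and 4 at an unadjusted p under 0.05, though Apoe, the main apolipoprotein of macrophages, read 11507, 7831, 14273 and 8785 and 5880.2, 4821, 6832 and 4998 (interval 0.41 to 1.36, adjusted p = 0.11).

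Markers of macrophages and of other cells were checked in the same fit. Of 14 macrophage genes Slco2b1 alone was called (7.14%, beside 1.95% of all named genes), and 4 had an unadjusted p under 0.05 (28.6%, beside 15%). The summed intensity of the 14 was 60408 to 69077 over the KO arrays and 51780 to 58963 with NS398, without overlap. Bright probes weigh most in this sum: Cd14 alone gave means of 19004 in KO and 14823 with NS398 and did not pass (limma adjusted p = 0.54). Lyz, lysozyme, read 1720.2, 3589.6, 1709.9 and 3475 in KO and 1233, 2175, 1221 and 1623 with NS398 with its brighter probe, which did not pass (adjusted p = 0.55), and its other probe did, at 0.93 ± 0.18 (SE; limma adjusted p = 0.022). Mrc1, the mannose receptor, was higher in KO by 0.65 ± 0.12 (SE; limma adjusted p = 0.018, lost in 7 alternatives, at most 0.11). With Egr2 it made 1 higher and 1 lower of 8 genes of alternative activation (25%, beside 1.95% of all named genes). Of these 8, 4 had an unadjusted p under 0.05 (50%, beside 15%). None of 11 granulocyte markers was called by limma or had an unadjusted p under 0.05; their summed intensity was 1727 to 1958 in KO and 1802 to 2515 with NS398, where S100a8, an alarmin of neutrophils, read 317, 347, 817 and 952. None of 5 dendritic, 2 T and NK cell, 2 erythroid and megakaryocyte, 1 B cell and 1 mast cell markers tested was called or had an unadjusted p under 0.05. Only some of these markers had a group detection p. Of those, 1 of 5 granulocyte, 0 of 1 dendritic and 0 of 1 mast cell markers were detected in each group. For erythroid and megakaryocyte markers it was 1 of 2, and for B cells 1 of 1. Where a marker was not detected, the lack of a call does not show equal content of these cells.

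Experiment 1 offered other arrays of the same genotypes, cultured 1 day with M-CSF and RANKL. There 33.8% of 17211 probes tested were called for KO minus WT, and among named probes 39.1% were higher and 31.2% lower in KO. Of the 70 probes higher in KO than with NS398 on day 3, 37 were higher (52.9%) and 18 lower (25.7%) in KO than WT on day 1, and of the 70 lower ones, 18 were lower (25.7%) and 40 higher (57.1%). The median day 1 differences were 0.35 and 0.41. The day 1 direction thus did not follow the sign of the day 3 difference.

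Single genes differed in this respect. Csrp1 read 4182, 4625 and 4204 in KO and 199.7, 283 and 249 in WT on day 1, a difference of 4.17 ± 0.11 (SE; limma adjusted p = 1.3e-16), the same direction as on day 3. H2-Ea and Lad1 also kept their direction, with day 1 differences of 3.07 and -1.48 (limma adjusted p = 1.9e-14 and 1.5e-09). Cd300ld had the opposite one: 5041, 4358 and 4851 in KO and 381, 397 and 367 in WT, a difference of 3.64 ± 0.10 (SE; limma adjusted p = 1.1e-16). Sri rose as well on day 1, by 1.73 (limma adjusted p = 2.8e-11), and Traf6, Cdc5l and Abhd1, which followed the genotype on day 3, had day 1 differences of -0.09, 0.04 and -0.22 that did not pass (limma adjusted p = 0.59, 0.82 and 0.12). Day and experiment, which were normalized separately, cannot be told apart in these values.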

How the data were processed

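Biotin-labelled cRNA was hybridised to Illumina bead arrays. The authors deposited normalized intensity values on a linear scale, and per the submitters' processing notes GenomeStudio was used (version not given). Group detection p-values come from the authors' deposited comparison tables, per the file headers, and exist only for probes those tables list. These tables also gave gene names for 7244 probes, so counts among named genes are raised by that choice. Of 5838 symbols 3969 were current in RefSeq for GRCm38.p6, 1381 were updated by a synonym, 349 by the probe's definition and 144 were kept.

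Probes above the 40th percentile of an array in at least 4 arrays (3 on day 1) were kept, 18961 on day 3 and 17211 on day 1. Log2 intensities were modelled with limma 3.58.1 under R 4.3.3 (lmFit, eBayes), with 1 mean per group over all 16 day 3 arrays (10 on day 1, with a WT group on M-CSF alone). Tests were two-sided with Benjamini-Hochberg adjustment over all probes kept, called under 0.05. In simulated data the fit for KO minus NS398 on 18961 probes recovered 61% of changes of 0.5 and 95% of changes of 1, and 5.45% of calls were false. The simulated noise was normal and independent between probes and arrays. These shares therefore need not hold where arrays vary together across genes.

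Named genes were, among called probes with a true gene symbol and arrays that did not overlap, the 15 that rose most and the 15 that fell most, the 3 members of each gene list with the smallest p, 19 set genes and the called genes within 100 genes of Ptgs2. Tnf, Rsad2, Ifi47, H2-DMb1, H2-Q7 and H2-D4 and the genes in the closing section fell outside this rule and were chosen after their values were seen. The brightest probe stood for a gene in lists. The members and the gene lists were chosen with earlier results of these data known. Comparisons with WT share arrays with each other, and no overlap between them was tested. Alternatives were another normalization, other filters, fewer arrays, array weights, a moderated trend, the suffix r of array numbers as a covariate, and leaving out each array.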

Additional observations from a re-analysis of the deposited data

Results flagged for a closer look

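In 15 of 216 sets of 4 arrays tested, 1 array lay far from the other 3 of its group by Dixon's criterion at its 95% critical value. About 1 in 20 such sets does so by chance. Of the genes that passed the test between KO and NS398, Trmt1l with NS398 was set apart by array 13 at 587, Slco2b1 in KO by array 12r at 810.2, Nfkb2 in KO by array 7 at 348, and Fam126a in KO by array 12r at 399. Manbal in KO was set apart by array 8 at 455, and the dimmer Phlda3 probe in KO by array 8 at 135.

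The remaining values belong to genes that did not pass. In KO, array 8 stood apart for Lpar6 at 2689 and for Ptger2 at 272, and array 12r for Mmp9 at 29267, for Fdps, an enzyme of cholesterol synthesis, at 2114, and for Retnlg, a granulocyte gene, at 112. With NS398, array 13 stood apart for Nfkbiz at 822 and for Retnlg at 141, array 16r for Arg1 at 152, and array 18 for Blnk, an adaptor of B cell receptor signalling, at 761.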

How the results depend on the processing

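No paired analysis was possible because the groups compared share no replicate number. With 70 probes higher and 70 lower in KO as reported, array weights gave 160 and 152, and the suffix r of array numbers as a covariate gave 106 higher. A fit of only the KO and NS398 arrays gave 42 higher, and leaving out the arrays with suffix r gave 44 lower. Leaving out single arrays gave 36 to 81 higher and 51 to 79 lower. Under a filter at the 60th percentile 10900 of the 11277 probes then tested had an interval within 1 log2 unit, a smaller number because fewer probes were tested. Leaving out single arrays gave 18301 to 18655 such probes. The other counts stayed within 1.5 times the reported ones. Of 54 named probes called, 36 kept the call in every alternative and 18 lost it in at least 1; no called value changed its sign. Why the counts moved was not tested. The 4 arrays of each group limit what could be detected, and dim probes near background give only bounds.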

Other observations

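The further genes given here passed the test and were chosen after their values were seen. Tlr7, the receptor for single-stranded RNA, read 1061, 960.4, 927 and 1088 in KO and 716, 685, 546 and 498 with NS398, a difference of 0.74 ± 0.14 (SE; limma adjusted p = 0.016). Fcgrt, the neonatal Fc receptor, read 4476, 4264, 5659 and 4597 and 3149, 3173, 2896 and 2421, while WT lay near KO at 4165 to 5251 (0.71 ± 0.14, SE; limma adjusted p = 0.018). Socs2, an inhibitor of growth hormone signalling, read 403, 455, 420.1 and 435 in KO and 257, 254, 266 and 248 with NS398, with WT at 386 to 469.9 (0.74 ± 0.09, SE; limma adjusted p = 0.00036). Egr1, an immediate early transcription factor, differed by 0.73 ± 0.10 (SE; limma adjusted p = 0.0014), the opposite sign of its relative Egr2.

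Galnt11, which starts O-linked sugar chains, and Ercc5, a nuclease of DNA repair, were higher in KO by 0.86 and 0.87 (limma adjusted p = 0.00066 and 0.0016), with WT near NS398. The other Ercc5 probe had a difference of 0.03 and was not called. Cyp27a1, the sterol 27-hydroxylase, was higher with 2 of its 3 probes, the larger difference being 0.65. Abcb1b, a drug efflux pump, read 244, 235, 243 and 198 in KO, 503, 394, 401 and 376 with NS398 and 429, 511, 454 and 518 in WT (-0.86 ± 0.10, SE; limma adjusted p = 0.00031). Acsl3, which activates fatty acids, read 455, 421, 400.0 and 512 in KO and 848, 1044, 726 and 687 with NS398 (-0.87 ± 0.11, SE; limma adjusted p = 0.00063). Klf9, a glucocorticoid-induced transcription factor, was lower in KO than with NS398, at 438 ± 32.3 and 727 ± 98.7 (SD, n = 4 each), and both were above WT at 315 ± 30 (-0.72 ± 0.11, SE; limma adjusted p = 0.0016).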
